A study of Rattus norvegicus with 12 samples.

Results

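Primary smooth muscle cells of the rat pulmonary artery (PASMC) given an siRNA against NRF2 (siNRF2) were compared with PASMC given a control siRNA (siControl). The comparison rests on 6 of the 12 libraries of the series, 3 with siNRF2 and 3 with siControl, chosen by their labels and not by any measured value. All 14584 genes that passed a filter on low counts, of 32883 in the deposited table, were tested. The other 6 libraries are pulmonary artery endothelial cells (PAEC) given the same siRNAs. They entered the filter, the scaling and the estimate of spread, so they bear on which PASMC genes were tested and called. Otherwise they serve only to show where the PASMC response differs. Every library carries the genotype label WT and the tissue label lung. The PASMC were grown in a smooth muscle cell medium. The sources used here do not give the rat strain, the siRNA dose or the time between transfection and harvest.

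NRF2 is a transcription factor of the oxidative stress response. In unstressed cells its partner KEAP1 marks it for degradation, and when oxidants or electrophiles modify KEAP1, NRF2 accumulates and binds antioxidant response elements, which drive genes of glutathione synthesis, NADPH supply, iron handling and detoxification. Smooth muscle cells form the contractile layer of the pulmonary artery and lay down much of its matrix. An siRNA lowers the mRNA that it matches.

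Genes carry Ensembl IDs without symbols in the count table, and 0 of these IDs could be matched to the gene table used here. Genes are therefore given by ID, with the chromosome, the start of the first exon and the end of the last exon as the count table has them, and no gene is given a function. The sources used here do not name the genome build of these positions. The siRNA target and the marker genes of smooth muscle, endothelium, fibroblasts and leukocytes, known by symbol, are not analysed here. The direction of every difference rests on reading the column letters S_S as PASMC siNRF2 and S_C as PASMC siControl, which no label states.

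Depth was similar in the groups, at 30839284 to 32569384 counts per library in siNRF2 and 27008812 to 34268854 in siControl. Log2 CPM (counts scaled to library size, per 1e6 counts, with TMM factors) correlated at 0.977 to 0.984 between replicates, and at 0.967 to 0.974 between libraries of different siRNAs. The design text calls the libraries biological replicates, with no word on separate animals or cultures, so p-values measure the spread between these libraries.

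With TMM scaling, which centres the libraries on each other, about as many genes rose as fell in PASMC given the NRF2 siRNA, and most changes were small. With library totals in place of TMM the order turned, with 1979 genes rising and 2483 falling. Of 14584 genes tested, 4479 (30.7%) passed the test, of which 2350 (16.1%) rose and 2129 (14.6%) fell (adjusted p under 0.05 by the Benjamini-Hochberg method, edgeR quasi-likelihood test, 3 libraries each). The log2 fold change of the genes that rose had a median of 0.47, and that of the genes that fell a median of -0.50. By at least 1.5-fold, 703 rose and 790 fell. By at least 2-fold, 150 rose (1.03% of the genes tested) and 187 fell (1.28%), and 86 and 116 of these had a mean of at least 2 CPM over the 6 PASMC libraries. The siNRF2 and siControl values did not overlap for 2311 of the genes that rose and 2057 of those that fell, which is 30.0% of all genes tested, while 6736 (46.2%) showed no overlap whether called or not. No gene had at least 10 counts in each library of 1 siRNA and 0 in each library of the other. With at least 1 count in each library, 68 genes were found in siNRF2 only and 28 in siControl only, with at most 26 and 37 counts over the 3 libraries, so complete gains and losses were seen only near the limit of detection.

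**Figure D1:**
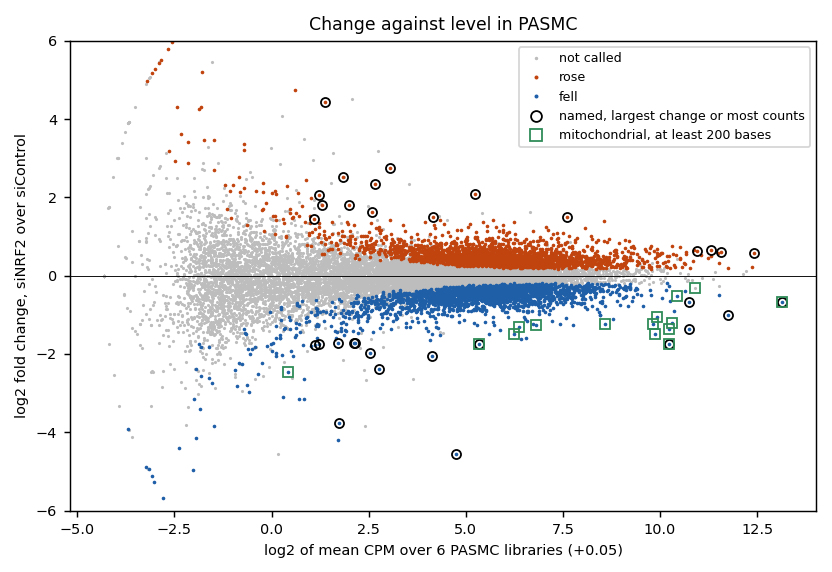
Each point is 1 of the 14584 genes tested, with the log2 of its mean CPM over the 6 PASMC libraries on the horizontal axis and the log2 fold change of siNRF2 over siControl on the vertical axis. Genes that rose are orange, genes that fell are blue and genes not called are grey; circles mark the genes named for the size of the change or the number of counts, and green squares the 15 mitochondrial genes of at least 200 bases, all of which lie below 0.

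The balance of rises and falls differed with the level of a gene. Among nuclear genes with a mean of at least 1000 CPM, 40 of 76 rose and 11 fell, with a median log2 fold change of 0.21. Between 100 and 1000 CPM, 620 of 1776 rose and 444 fell, and between 10 and 100 CPM 1453 of 7100 rose and 1359 fell. From 1 to 10 CPM the order turned, with 198 of 3409 rising and 261 falling. Below 1 CPM 39 of 2207 rose and 39 fell. The precision of the fold change moved with the level. Its median standard error was 0.83 below 1 CPM and 0.072 at 1000 CPM and above, so the share of genes called is not comparable across levels.

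Exon length also went with direction. Of all 8952 nuclear genes of at least 10 CPM, 23.6% rose and 20.3% fell. Among them, 27 of 134 genes with under 500 bases of exon rose and 45 fell, with a median log2 fold change of -0.08. Between 500 and 1500 bases 394 of 1591 rose and 246 fell, and between 1500 and 3000 bases 924 of 3636 rose and 636 fell. The longer genes went the other way, with 629 of 2875 rising and 703 falling between 3000 and 6000 bases, and 139 of 716 rising and 184 falling at 6000 bases or more. Genes with a single exon had 79 of 236 rising and 40 falling, and genes with at least 20 exons 419 of 1617 rising and 300 falling. The medians of all these classes lay between -0.08 and 0.13, against 0.03 over all nuclear genes of at least 10 CPM. The slope on log2 exon length of each library's log2 CPM, relative to the mean of the 6 PASMC libraries, was -0.027, 0.019 and 0.010 in siNRF2 replicates 1 to 3 and 0.0095, -0.0048 and -0.0062 in siControl replicates 1 to 3. These slopes overlapped (exact permutation test, two-sided, p = 0.90; the smallest p that 3 against 3 allows is 0.10). They are straight lines over tested genes of all levels on the numbered and sex chromosomes. A straight line can miss a balance that turns more than once with length, so the slopes do not bear on the classes above.

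**Figure D2:**
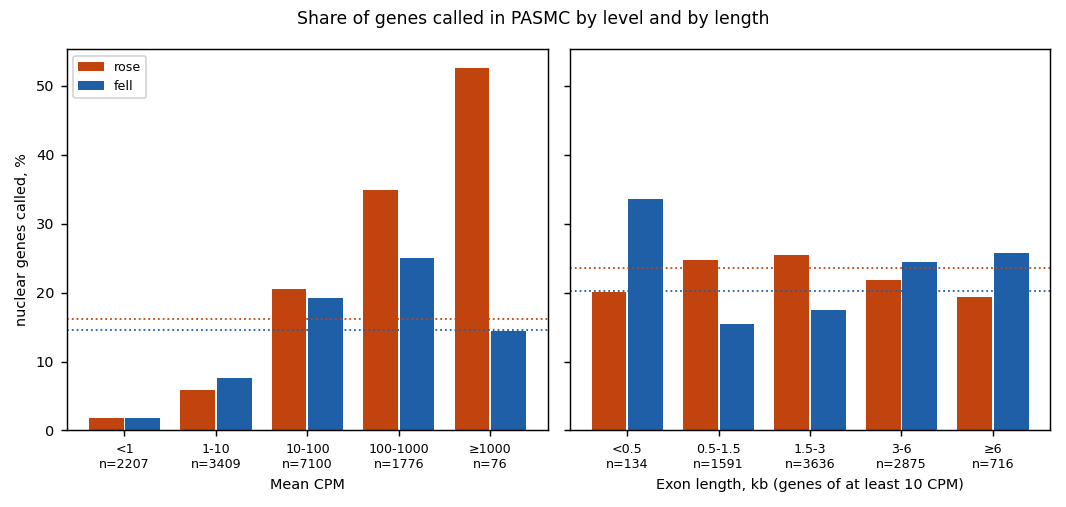
Bars give the percentage of nuclear genes in each class that rose (orange) or fell (blue) in PASMC siNRF2 against siControl, by mean CPM on the left and by exon length among genes of at least 10 CPM on the right, with the number of genes tested under each pair. Dotted lines mark the shares that rose and fell, 16.1% and 14.6% of all genes tested on the left and 23.6% and 20.3% of nuclear genes of at least 10 CPM on the right; at 1000 CPM and above 40 of 76 genes rose, and under 500 bases 45 of 134 genes fell.

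Of the genes that changed by at least 1.5-fold without overlap, 4 that rose and 4 that fell took the most counts. ENSRNOG00000014288 (chromosome 9, 78900103 to 78969078, minus strand, 46 merged exons) had 6417, 6490 and 6677 CPM in siNRF2, against 4461, 4011 and 4559 CPM in siControl. The log2 fold change was 0.59 (SE 0.075, edgeR adjusted p = 1.9e-05). Some of its exons overlap a gene on the opposite strand, and use of strand in counting is not stated in the sources used here. ENSRNOG00000003897 (chromosome 10, 82745801 to 82762789, plus strand, 51 merged exons) had 3916, 3530 and 3550 CPM in siNRF2, against 2395, 2492 and 2354 CPM in siControl (log2 fold change 0.60, SE 0.067, edgeR adjusted p = 4.9e-06). In both genes the lowest siNRF2 library lay more than 1000 CPM above the highest siControl library.

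ENSRNOG00000001414 (chromosome 12, 22641104 to 22651482, plus strand) averaged 3089 ± 114 CPM in siNRF2 and 1955 ± 138 CPM in siControl (SD, n = 3 each), with a log2 fold change of 0.66 (SE 0.075, edgeR adjusted p = 6.0e-06). ENSRNOG00000003148 (chromosome 10, 107338465 to 107386072, minus strand) averaged 2416 ± 177 CPM in siNRF2 and 1566 ± 77.9 CPM in siControl, with a log2 fold change of 0.63 (SE 0.071, edgeR adjusted p = 6.1e-06). Together these 4 genes took 1.82%, 1.77% and 1.82% of all counts in the siNRF2 libraries, against 1.23%, 1.13% and 1.28% in the siControl libraries. The rise of each was close to the 1.5-fold limit of the rule that chose them.

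Of the abundant genes that fell, ENSRNOG00000016945 and ENSRNOG00000043098 changed by more than any of the abundant genes that rose. ENSRNOG00000004610 and ENSRNOG00000034234 changed by about as much as the largest of those rises. ENSRNOG00000016945 (chromosome 5, 157282669 to 157285328, plus strand, 849 bases of exon) had 1059, 933 and 921 CPM in siNRF2, against 2470, 2538 and 2481 CPM in siControl. The log2 fold change was -1.36 (SE 0.084, edgeR adjusted p = 1.0e-08). ENSRNOG00000043098 (chromosome 19, 11307967 to 11308740, minus strand, 382 bases of exon) had 2432, 2037 and 2418 CPM in siNRF2, against 4381, 4704 and 4797 CPM in siControl (log2 fold change -1.01, SE 0.14, edgeR adjusted p = 0.00020). Its nearest tested neighbour, ENSRNOG00000025764 (chromosome 19, 11302125 to 11302938, minus strand, 348 bases of exon), noticed after its values were seen, also fell. It averaged 911 ± 82.9 CPM in siNRF2 and 1702 ± 264 CPM in siControl (log2 fold change -0.90, SE 0.12, edgeR adjusted p = 8.1e-05). Both are short genes on 1 strand, and reads that match more than 1 gene could be split between them or lost.

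ENSRNOG00000004610 (chromosome 7, 38819771 to 38826862, plus strand) had 1254, 1393 and 1294 CPM in siNRF2, against 1981, 2461 and 1886 CPM in siControl, a log2 fold change of -0.68 (SE 0.11, edgeR adjusted p = 0.00015). The last of the 4, ENSRNOG00000034234, is mitochondrial (positions 5323 to 6867, plus strand). It took more counts than any other named gene, with 6432, 7754 and 6896 CPM in siNRF2 and 10624, 12890 and 10057 CPM in siControl (log2 fold change -0.67, SE 0.11, edgeR adjusted p = 0.00024). The 4 genes that fell took 1.28% to 1.39% of all counts in siNRF2 and 2.31% to 2.59% in siControl.

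Of the 12 largest rises among genes of at least 2 CPM, 10 were in genes with a mean under 18.9 CPM, the median of all genes tested, and ENSRNOG00000007089 and ENSRNOG00000047280 lay above it. Of 4241 genes called without overlap at this level, 2248 rose, and the 12 with the largest log2 fold change, from 1.44 to 4.42, are described here. Their sizes come from the rule that chose them. The most even of them were ENSRNOG00000011490 and ENSRNOG00000007089. ENSRNOG00000011490 (chromosome 8, 22856539 to 22858565, plus strand, 878 bases of exon) had 16.4, 12 and 14.2 CPM in siNRF2, against 2.38, 1.61 and 2.38 CPM in siControl (log2 fold change 2.74, SE 0.19, edgeR adjusted p = 3.7e-08). It lies within the span of a longer gene on the opposite strand, ENSRNOG00000010652 (22822412 to 22874645), which rose by a log2 fold change of 0.59. ENSRNOG00000007089 (chromosome 6, 126282233 to 126320726, minus strand) had 290, 298 and 281 CPM in siNRF2, against 96.5, 114 and 99.4 CPM in siControl, and was the most abundant of the 12.

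ENSRNOG00000036301 (chromosome 1, 101448331 to 101448436, minus strand) is a single exon of 106 bases with 10.6, 9.75 and 11.4 CPM in siNRF2, against 0.959, 2.86 and 2.43 CPM in siControl. The fitted log2 fold change was 2.34 (SE 0.28, edgeR adjusted p = 1.5e-05). It shares bases on the same strand with ENSRNOG00000020843 (101448346 to 101449829), which averaged 1547 ± 60.7 CPM in siNRF2 and 1054 ± 120 CPM in siControl (SD, n = 3 each), so the counts of the short gene are not shown to be its own. ENSRNOG00000047280 (chromosome 1, 217602698 to 217638152, minus strand, 18 merged exons) varied more between libraries, with 39.8, 55.9 and 86.5 CPM in siNRF2, against 9.47, 12.8 and 20.3 CPM in siControl. The groups did not overlap, and the log2 fold change was 2.09 (SE 0.44, edgeR adjusted p = 0.0079). ENSRNOG00000047447 (chromosome 4, 157374318 to 157374952, plus strand, 354 bases of exon) had 34.3, 20.4 and 23.8 CPM in siNRF2 and 6.56, 8.18 and 13.1 CPM in siControl. Its log2 fold change of 1.49 (SE 0.40, edgeR adjusted p = 0.021) did not pass without siNRF2 replicate 1, siControl replicate 1 or siControl replicate 2, at edgeR adjusted p = 0.073, 0.070 and 0.079, nor with the replicate number as a block, at 0.054.

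The largest of the 12 rises rested on 1 library. ENSRNOG00000045655 (chromosome 1, 88680856 to 88686615, minus strand) had 0.966, 0.620 and 12.9 CPM in siNRF2, against 0.124, 0.0584 and 0.462 CPM in siControl. Only siNRF2 replicate 3 was far above the rest. The gene's log2 fold change was 4.42 (SE 1.15, edgeR adjusted p = 0.012), and 1.84 (edgeR adjusted p = 0.19) without that library. It was 5.68 without siControl replicate 3, and the call was lost without siControl replicate 1 or 2 and when the 6 PASMC libraries were fitted alone (edgeR adjusted p = 0.064, 0.059 and 0.14).

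The remaining 6 rises had means of 3.04 to 9.02 CPM in siNRF2 and 0.892 to 2.89 CPM in siControl. ENSRNOG00000061056 (X chromosome, 158581631 to 158582269, plus strand) had 7.70, 2.51 and 7.94 CPM in siNRF2 and 1.36, 0.350 and 1.46 CPM in siControl. A gene on an unplaced scaffold, ENSRNOG00000053148 (129152 to 131036, minus strand), had 4.52, 2.93 and 3.65 CPM in siNRF2 and 1.02, 1.17 and 0.486 CPM in siControl. ENSRNOG00000030174 (chromosome 19, 14345993 to 14346891, plus strand) had 4.43, 5.02 and 1.81 CPM in siNRF2 and 1.11, 0.964 and 1.12 CPM in siControl. The groups did not overlap in any of these 3, and each had 1 library well below the other 2 of its group in siNRF2, siControl or both. ENSRNOG00000061438 (chromosome 14, 86751157 to 86751792, plus strand, 1 exon) had 9.29, 4.59 and 4.58 CPM in siNRF2 and 1.45, 1.81 and 1.99 CPM in siControl. ENSRNOG00000047046 (chromosome 9, 10963723 to 10971277, plus strand) had 10.1, 9.72 and 7.2 CPM in siNRF2 and 2.78, 2.28 and 3.60 CPM in siControl. ENSRNOG00000045543 (chromosome 1, 261089745 to 261090437, minus strand, 1 exon) had 3.75, 2.62 and 2.75 CPM in siNRF2 and 0.959, 1.49 and 0.900 CPM in siControl. These 6 genes had log2 fold changes between 1.44 and 2.51, and each kept its call whichever of the 6 PASMC libraries was left out.

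**Figure D3:**
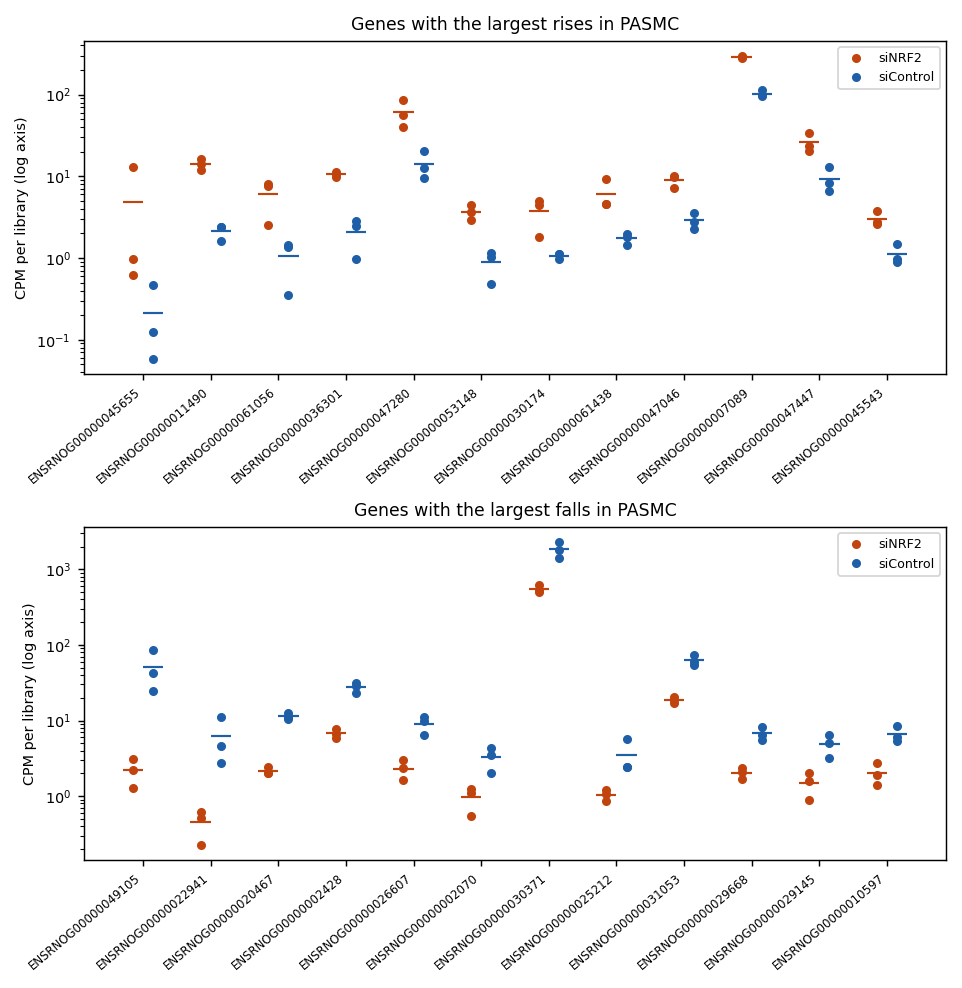
Points are the CPM of each library on a log axis for the 12 genes with the largest rises (top) and the 12 with the largest falls (bottom), with siNRF2 in orange left of siControl in blue and short lines at the group means. The groups do not overlap in any of these genes, which the rule required; ENSRNOG00000045655 has 1 siNRF2 library at 12.9 CPM and the other 2 at 0.966 and 0.620 CPM.

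The 12 largest falls ran from -1.71 to -4.54 on the log2 scale, and 3 of them were mitochondrial. The largest was in ENSRNOG00000049105 (chromosome 10, 70109549 to 70109623, plus strand), a single exon of 75 bases, with 3.12, 1.27 and 2.19 CPM in siNRF2, against 42.3, 24.8 and 86.5 CPM in siControl. The siControl libraries differed by more than 3-fold among themselves. The log2 fold change was -4.54 (SE 0.60, edgeR adjusted p = 0.00064), and -3.93 without siControl replicate 3. ENSRNOG00000022941 (chromosome 1, 154131926 to 154132330, plus strand, 1 exon that overlaps another gene on its strand) had 0.511, 0.225 and 0.613 CPM in siNRF2, against 2.75, 4.58 and 11.1 CPM in siControl. Its log2 fold change was -3.76 (SE 0.56, edgeR adjusted p = 9.0e-05), and -3.01 without siControl replicate 3.

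Other falls were even across libraries. ENSRNOG00000002428 (X chromosome, 78042859 to 78056347, plus strand, 3 merged exons) had 5.88, 6.71 and 7.62 CPM in siNRF2, against 28.7, 31.9 and 23.3 CPM in siControl (log2 fold change -2.05, SE 0.17, edgeR adjusted p = 1.8e-07). ENSRNOG00000020467 (chromosome 18, 26185259 to 26211445, minus strand, 435 bases of exon) had 2.04, 2.45 and 2.03 CPM in siNRF2, against 11.3, 12.5 and 10.3 CPM in siControl (log2 fold change -2.39, SE 0.26, edgeR adjusted p = 4.0e-06). For both, the highest siNRF2 library was far below the lowest siControl library.

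ENSRNOG00000026607 (chromosome 13, 79378733 to 79388498, plus strand) had 2.33, 2.96 and 1.65 CPM in siNRF2, against 9.78, 11.2 and 6.42 CPM in siControl. Its neighbour ENSRNOG00000026917 (79203469 to 79204594), which overlaps another gene on its strand, fell too, with means of 0.563 ± 0.127 CPM in siNRF2 and 2.15 ± 1.18 CPM in siControl (SD, n = 3 each; log2 fold change -1.93, SE 0.57, edgeR adjusted p = 0.015). ENSRNOG00000002070 (chromosome 14, 14951495 to 15008150, minus strand) had 0.540, 1.10 and 1.25 CPM in siNRF2 and 4.36, 2.01 and 3.50 CPM in siControl. ENSRNOG00000010597 (chromosome 9, 5294381 to 5330815, minus strand) had 2.73, 1.41 and 1.89 CPM in siNRF2 and 6.03, 8.38 and 5.38 CPM in siControl. Both fell by similar amounts, with log2 fold changes of -1.77 and -1.71. ENSRNOG00000025212 (chromosome 12, 12203644 to 12204493, plus strand) had 1.22, 1.07 and 0.853 CPM in siNRF2 and 2.41, 2.42 and 5.69 CPM in siControl. Its log2 fold change was -1.74 (edgeR adjusted p = 0.014), and the call was lost without siNRF2 replicate 3 (-1.61, edgeR adjusted p = 0.058) or siControl replicate 3 (-1.20, edgeR adjusted p = 0.12).

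Neighbouring genes that were both called mostly moved in the same direction. Of 14523 pairs of neighbouring tested genes on the nuclear chromosomes, both members were called in 1443 (9.94%, where 30.7% of single genes were called). In 1092 of these pairs (75.7%) the direction was the same, with 590 pairs rising and 502 falling, while rises made up 2350 of the 4479 single calls. Of the 54 nearest neighbours of 27 named nuclear genes, 18 were called (33.3%), close to the 30.7% of all genes tested, and all 18 moved in the direction of the named gene. Among changes of at least 2-fold, 13 pairs (0.0895% of the neighbouring pairs) were called together, where 2.31% of single genes were. Of these, 12 had 1 direction, 2 rising and 10 falling. Some of the falling pairs share a gene or overlap in span, and some include a gene with a mean under 1 CPM. Neighbouring genes share their local gene density, which itself went with direction in these libraries, as described further on.

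On chromosome 14, ENSRNOG00000002792 (18731378 to 18733391) and ENSRNOG00000002802 (18743685 to 18745457), both on the minus strand with 4 merged exons, fell together. ENSRNOG00000002802 averaged 231 ± 4.61 CPM in siNRF2 and 465 ± 8.69 CPM in siControl (SD, n = 3 each; log2 fold change -1.01, SE 0.090, edgeR adjusted p = 6.3e-07). ENSRNOG00000002792 averaged 44.5 ± 2.57 CPM in siNRF2 and 92.3 ± 2.0 CPM in siControl (log2 fold change -1.05, SE 0.15, edgeR adjusted p = 7.1e-05). The 2 genes did not overlap in position, and the spread between replicates was small beside the change. On chromosome 1, ENSRNOG00000016367 (80170619 to 80185882, minus strand) averaged 104 ± 5.73 CPM in siNRF2 and 50.0 ± 2.44 CPM in siControl, a log2 fold change of 1.06 (SE 0.11, edgeR adjusted p = 3.2e-06). Its neighbour ENSRNOG00000059266 (80190219 to 80191618), on the same strand, rose by 1.02 at a lower level.

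The second rising pair lay on chromosome 20. ENSRNOG00000045924 (3226313 to 3233694, plus strand) averaged 77.2 ± 6.95 CPM in siNRF2 and 32.3 ± 5.17 CPM in siControl (SD, n = 3 each; log2 fold change 1.25, SE 0.14, edgeR adjusted p = 4.9e-06). ENSRNOG00000000787 (3242470 to 3249189, plus strand, with an exon that overlaps another gene on its strand) averaged 9.29 ± 0.617 CPM in siNRF2 and 4.38 ± 1.84 CPM in siControl, with a log2 fold change of 1.08 (SE 0.32, edgeR adjusted p = 0.015). Both moved by more than the spread between replicates. These pairs were noticed after their values were seen.

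Runs of 3 neighbours that fell by at least 2-fold were found at 2 places. On chromosome 10, ENSRNOG00000057390, ENSRNOG00000037097 and ENSRNOG00000029668 span 70964396 to 71053191 on the plus strand. ENSRNOG00000037097 had the most counts, at 17.4 ± 1.77 CPM in siNRF2 and 39.4 ± 2.11 CPM in siControl (SD, n = 3 each; log2 fold change -1.18, SE 0.15, edgeR adjusted p = 1.3e-05). ENSRNOG00000029668, also among the 12 largest falls, had 2.07, 1.69 and 2.37 CPM in siNRF2 and 5.54, 6.48 and 8.25 CPM in siControl. On chromosome 19, ENSRNOG00000015519, ENSRNOG00000015438 and ENSRNOG00000039725 span 15033108 to 15366079 on the plus strand. Their means were 0.557 ± 0.125, 0.0366 ± 0.0317 and 2.03 ± 0.875 CPM in siNRF2, against 2.30 ± 0.200, 0.364 ± 0.169 and 5.30 ± 0.771 CPM in siControl. At both places the spans of the first and second gene overlap on 1 strand. The chromosome 19 run needs its middle gene, ENSRNOG00000015438, which is near the limit of detection, to reach 3. That gene did not pass the filter with only the PASMC libraries. In PAEC it averaged 3.96 CPM in siNRF2 and 2.78 CPM in siControl, so this run depends on the PAEC libraries.

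The mitochondrial chromosome carries genes for subunits of the respiratory chain and for the RNAs of the mitochondrial ribosome. All 15 mitochondrial genes of at least 200 bases had lower values in each siNRF2 library than in any siControl library. Over all genes tested, 6736 (46.2%) showed no overlap in either direction. Of the 15 mitochondrial genes, 14 passed the test as falls and 0 as rises, against 14.6% of all genes tested that fell. The median log2 fold change of the 15 was -1.26. Together these 15 genes took 1.47%, 1.75% and 1.58% of all counts in siNRF2, against 2.94%, 3.32% and 2.67% in siControl. The difference in means was -1.38 percentage points (exact permutation test, two-sided, p = 0.10, the smallest that 3 against 3 allows). The 22 shorter mitochondrial genes are not informative, since 21 of them had 0 counts in the 6 PASMC libraries. The exception, ENSRNOG00000029145 (positions 15348 to 15415, minus strand), was among the 12 largest falls, with 0.880, 1.61 and 2.0 CPM in siNRF2 and 3.16, 6.48 and 5.11 CPM in siControl.

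The size of the fall differed along the mitochondrial chromosome. The first gene in order, ENSRNOG00000030478 (positions 68 to 1025), had 1480, 1833 and 1847 CPM in siNRF2, against 2090, 2136 and 2154 CPM in siControl, and the log2 fold change of -0.31 (SE 0.12) did not pass (edgeR adjusted p = 0.067). It passed with DESeq2, with library totals in place of TMM and with the PASMC libraries alone (adjusted p = 0.030, 0.044 and 0.0068), and with the replicate number as a block (0.0021). The second, ENSRNOG00000043866 (1094 to 2664), fell by 0.51 (SE 0.095, edgeR adjusted p = 0.00056). These 2 and the most abundant gene, at 5323 to 6867, were the only ones of the 15 with a log2 fold change above -1.

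Per kilobase of gene, the level of ENSRNOG00000034234 (5323 to 6867) was 4548 ± 434 CPM per kb in siNRF2 and 7243 ± 970 CPM per kb in siControl (SD, n = 3 each). The next gene in order, ENSRNOG00000030371 (7006 to 7689), had 806 ± 92.9 CPM per kb in siNRF2 and 2705 ± 642 CPM per kb in siControl. Its log2 fold change was -1.75 (SE 0.21, edgeR adjusted p = 0.00022), against -0.67 for the gene before it. The steepest fall was at the lowest level, in ENSRNOG00000033299 (7758 to 7961, overlapping the next gene on its strand), with 1.95 ± 0.013 CPM per kb in siNRF2 and 10.8 ± 5.2 CPM per kb in siControl. ENSRNOG00000031053 (9870 to 10166), which overlaps the next gene by its last bases, fell by a like amount to ENSRNOG00000030371, with 18.5, 20.6 and 17.2 CPM in siNRF2 and 59.8, 74.0 and 54.3 CPM in siControl (log2 fold change -1.74, SE 0.16, edgeR adjusted p = 6.0e-06). The 1 gene on the minus strand, ENSRNOG00000029042 (13543 to 14061), overlaps a gene on the plus strand and fell by 1.5 (SE 0.24, edgeR adjusted p = 0.0016). In siControl, replicate 2 had the highest CPM in 13 of the 15 genes, and replicate 3 the lowest in 12. The 15 genes are therefore not independent observations.

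The call of 1 mitochondrial gene was weak. ENSRNOG00000029707 (10160 to 11537) had 44.5, 54.2 and 43.3 CPM in siNRF2, against 107, 144 and 102 CPM in siControl, with a log2 fold change of -1.31 (SE 0.37, edgeR adjusted p = 0.029). Its adjusted p was between 0.057 and 0.097 without siNRF2 replicate 1, 2 or 3 or siControl replicate 1 or 2 (edgeR), although the groups were well apart.

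**Figure D4:**
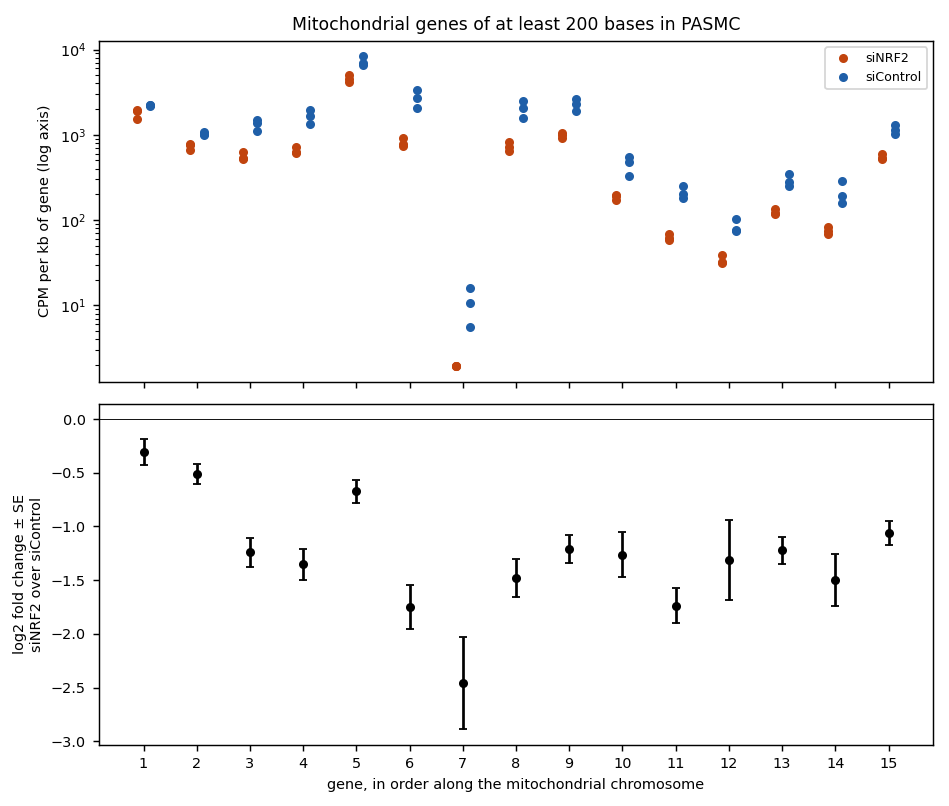
The upper panel gives CPM per kilobase of gene on a log axis in each PASMC library, siNRF2 in orange left of siControl in blue, for the 15 mitochondrial genes of at least 200 bases in order along the chromosome; the lower panel gives the log2 fold change of siNRF2 over siControl with its standard error. Genes 1, 2 and 5 have log2 fold changes of -0.31, -0.51 and -0.67 and all others lie below -1.

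Genes that mark the cell type could be examined only through the comparison of the cell types. Of 216 genes at least 8-fold higher in PASMC than in PAEC under both siRNAs, 19 rose (8.80%) and 22 fell (10.2%) in PASMC, against 16.1% and 14.6% of all genes tested, with a median log2 fold change of -0.03 and a median standard error of 0.30, against 0.15 over all genes. They took 1.26%, 1.33% and 1.34% of counts in siNRF2, against 1.49%, 1.5% and 1.48% in siControl. Of 163 genes at least 8-fold higher in PAEC, 16 rose (9.82%) and 29 fell (17.8%) in PASMC. Their median level in PASMC was only 1.30 CPM, with a median log2 fold change of 0.0 and a median standard error of 0.26. In PASMC they took 0.286%, 0.279% and 0.275% of counts in siNRF2 and 0.294%, 0.321% and 0.321% in siControl. Both shares were lower in siNRF2 without overlap (exact permutation test, two-sided, p = 0.10 for each, the smallest that 3 against 3 allows). In bulk samples fewer cells of a type and less RNA per cell cannot be told apart.

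The response of PASMC was then set against that of PAEC, which shares no library with it. The effects of the siRNA differed for 4239 genes (29.1% of those tested), with the PASMC effect above the PAEC effect for 2250 (15.4%) and below it for 1989 (13.6%; edgeR interaction test, adjusted p under 0.05). Of the 150 genes that rose by at least 2-fold in PASMC, 21 also rose in PAEC (14.0%), 14 fell (9.33%) and 115 were not called. Of the 187 that fell by at least 2-fold, 60 also fell in PAEC (32.1%) and 15 rose (8.02%), where 13.2% of all genes tested fell and 11.5% rose in PAEC. In PAEC 24.7% of all genes tested were called. The PASMC effect was above the PAEC effect for 97 of the 150 genes and below it for 1. It was below the PAEC effect for 88 of the 187 and above it for 6. Both sets were chosen by the PASMC effect, which is also a term of the difference, so these directions largely follow from the choice.

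Among the named genes, some changed in PASMC against the direction in PAEC. On the log2 scale, ENSRNOG00000036301 rose by 2.34 in PASMC, and its log2 fold change in PAEC was -1.53 (edgeR adjusted p = 0.00037). The far more abundant ENSRNOG00000020843, which shares bases with it, also rose in PASMC and fell in PAEC. Its log2 fold changes were 0.55 and -1.05 (edgeR adjusted p = 0.00027 and 2.3e-07). The opposite directions of ENSRNOG00000036301 are therefore not shown to be its own. ENSRNOG00000002070 fell by 1.77 in PASMC and rose by 1.84 in PAEC (edgeR adjusted p = 0.0062). ENSRNOG00000001414 and ENSRNOG00000003148 rose in PASMC by 0.66 and 0.63 and fell in PAEC, with log2 fold changes of -0.32 and -0.25 (edgeR adjusted p = 0.0039 and 0.015). In all 4 named genes the difference between the effects passed the interaction test (edgeR adjusted p at most 0.00064). The chromosome 20 pair, ENSRNOG00000045924 and ENSRNOG00000000787, also rose in PASMC and fell in PAEC. The PAEC log2 fold changes were -3.14 and -3.11, and the differences were 4.39 and 4.19 (edgeR interaction test, adjusted p = 7.2e-10 and 1.2e-05). The pair described on chromosome 14 fell in both cell types, and the pair on chromosome 1 was not called in PAEC.

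For other named genes the difference between the effects did not pass. ENSRNOG00000016945 had log2 fold changes of -1.36 (SE 0.084) in PASMC and -1.58 in PAEC (edgeR adjusted p = 1.0e-08 and 3.7e-10), with a difference of 0.22 (SE 0.12, edgeR adjusted p = 0.18). ENSRNOG00000003897 rose by 0.60 in PASMC and 0.71 in PAEC, with a difference of -0.10 (edgeR adjusted p = 0.44). A difference that misses the threshold does not show that the effects are equal. ENSRNOG00000049105 and ENSRNOG00000022941, the largest falls in PASMC, had log2 fold changes of 1.52 and -0.01 in PAEC that did not pass (edgeR adjusted p = 0.079 and 1.0), and the effects differed (edgeR adjusted p = 0.00090 and 0.0016). For the mitochondrial genes the PASMC effect was below the PAEC effect in 14 of 15, with a median difference of -1.81. In PAEC 5 of the 15 rose, 0 fell and 10 were not called, with a median log2 fold change of 0.43. ENSRNOG00000031053 rose in PAEC by 0.87 (SE 0.15) and ENSRNOG00000029971 by 0.68 (SE 0.12; edgeR adjusted p = 0.00081 and 0.00076).

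**Figure D5:**
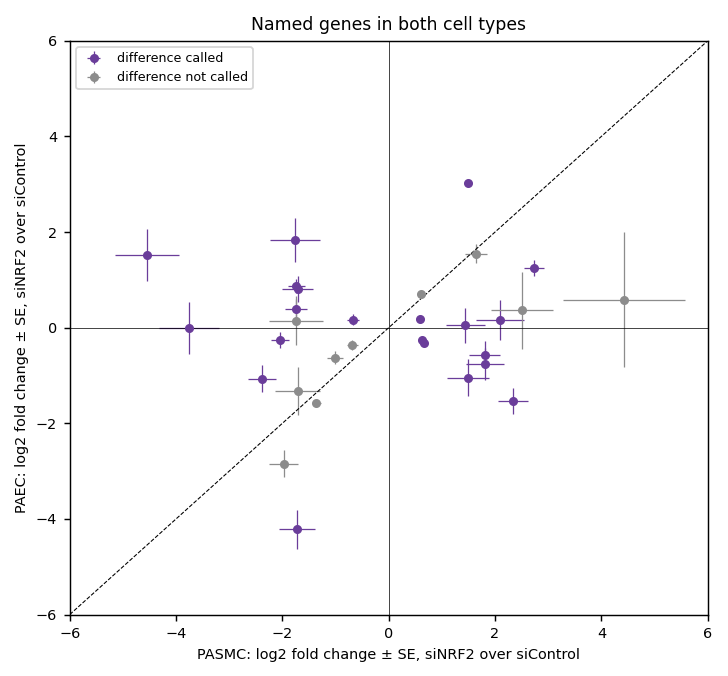
Each point is 1 of 31 named genes, with the log2 fold change of siNRF2 over siControl and its standard error in PASMC on the horizontal axis and in PAEC on the vertical axis; ENSRNOG00000053148, with 0 counts in PAEC, is left out. Purple points passed the test of the difference between the cell types and grey points did not; ENSRNOG00000049105 lies farthest to the left at -4.54, with 1.52 in PAEC, and points near the dashed line, such as ENSRNOG00000003897, had similar values in both.

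The response in PASMC went with local gene density, the number of genes in the table up to 500 kb away in both directions. Each library's log2 CPM, taken relative to the mean of the 6 PASMC libraries, was regressed on log2 density, with slopes of 0.090, 0.043 and 0.056 in siNRF2, against -0.061, -0.086 and -0.042 in siControl. The slopes of the groups did not overlap (exact permutation test, two-sided, p = 0.10, the smallest that 3 against 3 allows). After removal of the density trend from each library, an alternative added once results were known, 2025 genes rose and 1965 fell, and of the original calls in genes with a density value 3322 of 4461 (74.5%) were kept in the same direction. Of 322 such genes changed by at least 2-fold, 291 (90.4%) kept their call. The 32 named genes with a density value kept their call and direction. The other 17, on the mitochondrial chromosome or an unplaced scaffold, have no density value, so this alternative does not bear on them. The share of called neighbour pairs with the same direction was 67.3% (764 of 1136) with the trend removed, against 75.7% before. The part of RNA quality or library preparation in this trend was not tested.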

How the data were processed

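Libraries came from a directional kit and RNA from a Trizol extraction, per the labels' protocols. The deposited table holds raw counts per gene with exon positions, and HISAT2 2.0.5, featureCounts 2.0.3 and DESeq2 1.32.0 are named, without roles, in the submitters' processing notes. The sources used here do not give the genome build, the strand setting or the treatment of reads with several matches.

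Genes were kept by filterByExpr on the 4 groups (14584 genes) and scaled by TMM. All 12 libraries were fitted together, each group with its own coefficient, with edgeR 4.0.16 in R 4.3.3 (glmQLFit with robust estimation, glmQLFTest), with Benjamini-Hochberg adjustment over all genes tested. The standard error is the fold change over the root of F. CPM values carry TMM scaling, with a prior count of 2 on the log2 scale. The depth of 27008812 to 34317763 counts per library limits genes under 1 CPM. PASMC replicates were not duplicates of each other, since the chi-square of their counts was 8.84 to 29.9 times the number of genes compared. Exact permutation tests used scipy 1.17.1. The steps were also run on simulated counts, with far fewer changed genes than were called here and no trend with gene density. That run does not show how the steps behave under the conditions of these data.

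Named genes were those called, with a mean of at least 2 CPM over the 6 PASMC libraries and no overlap between the groups: the 12 largest rises and the 12 largest falls, and, among changes of at least 1.5-fold, the 4 rises and 4 falls with the highest mean CPM. Runs of 3 or more neighbours changed by at least 2-fold and mitochondrial genes of at least 200 bases were also named. The libraries on each side were chosen by their labels. The gene groups, and this comparison as the subject, were chosen with earlier results of these data known, and the p-values do not allow for that choice. Gene lists by symbol, and with them the siRNA target and cell type markers, were not run because no ID could be matched to a symbol. Alternatives were DESeq2 1.42.0, library totals, no filter, only the PASMC libraries, the replicate number as a block, leaving out each PASMC library and, chosen after the data were seen, a lowess trend with local gene density as an offset.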

Additional observations from a re-analysis of the deposited data

Results flagged for a closer look

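The test of the difference between the cell types drew attention to 4239 genes and, among those named, to 14 of the 15 mitochondrial genes and to 21 of 34 other named genes. The PASMC effect minus the PAEC effect is given on the log2 scale (edgeR interaction test, adjusted p under 0.05). The PASMC effect was above the PAEC effect by 1.49 for ENSRNOG00000011490, 3.87 for ENSRNOG00000036301, 1.93 for ENSRNOG00000047280, 2.57 for ENSRNOG00000030174, 2.37 for ENSRNOG00000061438, 2.53 for ENSRNOG00000047447 and 1.40 for ENSRNOG00000045543. Among the abundant genes it was above by 0.98 for ENSRNOG00000001414, 0.88 for ENSRNOG00000003148 and 0.40 for ENSRNOG00000014288. It was above by 0.87 for ENSRNOG00000037097, 1.51 for ENSRNOG00000057390 and 2.49 for ENSRNOG00000029668, which lie next to each other on chromosome 10 and fell in both cell types, by more in PAEC. The difference was -1.54 for ENSRNOG00000007089, which rose in both, by more in PAEC. It was -2.52 for ENSRNOG00000029145, -3.60 for ENSRNOG00000002070, -1.80 for ENSRNOG00000002428, -1.32 for ENSRNOG00000020467, -3.67 for ENSRNOG00000015438, -3.75 for ENSRNOG00000022941 and -6.07 for ENSRNOG00000049105. The value of ENSRNOG00000036301 is limited by its overlap with a more abundant gene, as described above.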

How the results depend on the processing

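The counts of genes called in PASMC stayed within 1.5 times of the reported ones in each alternative run. With DESeq2 2575 genes rose and 2319 fell, with library totals 1979 and 2483, with no filter 2290 and 1946, and with only the PASMC libraries 2526 and 2414. Leaving out each of the 6 PASMC libraries gave 3134 to 4250 genes called, of which 1699 to 2213 rose and 1435 to 2037 fell, 277 to 407 genes changed by at least 2-fold, of which 109 to 201 rose and 168 to 206 fell, and 3310 to 4245 genes with different effects in PASMC and PAEC, of which the PASMC effect was above for 1780 to 2226 and below for 1530 to 2019. The original calls kept in the same direction were 68.8% without siNRF2 replicate 1. The difference in the mitochondrial share was between -1.53 and -1.20 percentage points. The replicate numbers were not treated as pairs. Deviations of same-numbered libraries correlated at -0.037 to 0.013, and those of differently numbered libraries at -0.034 to 0.032. No pairing was seen, which does not show that the samples were unpaired. With the replicate number as a block, 5097 genes were called, 377 of them at least 2-fold. Of the named genes, the calls of ENSRNOG00000047447 and ENSRNOG00000030478 changed as described above. Each block holds 1 library of each group, so the difference of -1.38 percentage points in the mitochondrial share could not change and is no check. No named gene that was tested changed direction under the alternatives run; ENSRNOG00000015438 did not pass the filter with only the PASMC libraries or with the block and was not tested there. DESeq2 gave no adjusted p for 310 genes, which were left out of its counts. At 1 CPM and below the standard error of the fold change limits what can be called.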
